A study of Mus musculus with 6 samples.

Results

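The 44 genes described here encode the transforming growth factor beta (TGF-beta) and bone morphogenetic protein (BMP) pathway in mouse cortex at postnatal day 7. They were chosen by gene symbol, with earlier results of these data known. All 44 were found among the 24972 genes of the table, as 11 ligands, 2 latent TGF-beta binding proteins, 4 extracellular inhibitors, 11 receptors and co-receptors, 8 Smads, 4 intracellular inhibitors and 4 Id genes, which are classical targets. Ligands of this family bind pairs of type I and type II receptor kinases, which phosphorylate the receptor-regulated Smads. These join Smad4, enter the nucleus and regulate transcription with partner proteins. TGF-beta, activin and Gdf11 signals mainly use Smad2 and Smad3, and BMP signals mainly use Smad1, Smad5 and Smad9. In the developing brain the pathway acts in patterning, in the choice between neuronal and glial fates and in signaling from the meninges to the cortex. Zmiz1 is a protein related to the PIAS family and is a known coregulator of Smad3/Smad4-dependent transcription, and its mutations in people cause a neurodevelopmental disorder.

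Total RNA of the cortex was sequenced in 3 libraries labelled Wildtype, from Zmiz1f/f mice, and 3 labelled Zmiz1-KO, from Zmiz1f/f;Emx1Cre mice, all of them at postnatal day 7. Both groups thus carry the floxed Zmiz1 allele, and no group carries Cre without it. Emx1-Cre acts in progenitors of cortical excitatory neurons and glia, so that interneurons, which migrate into the cortex, and meningeal, blood vessel and immune cells largely keep the gene. A treatment note in the labels speaks of isolating progenitor cells, whereas the tissue label and the methods speak of dissected cortex. The methods give as many dissected samples per genotype as there are libraries here, without saying that each was 1 animal, so p-values measure the spread between these libraries. Values are counts that the authors normalized with DESeq2, called normalized counts here. They summed to between 32661979 and 33239707 per library and stood for an estimated 15494889 to 17858391 reads or read pairs. Markers of cortical excitatory neurons were high in every library, with a summed 34785 to 42314 normalized counts over 6 genes. A choroid plexus list, led by Ttr, ran from 289.8 to 8379 normalized counts between libraries, and the extremes of that range were both in wildtype.

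Groups were compared by limma on log2(normalized count + 1), with Benjamini-Hochberg adjustment over the 15800 genes with at least 10 normalized counts in at least 3 libraries, and a gene was called at an adjusted p at or under 0.05. In every list of values below, the 3 libraries of a group stand in the order of replicates 1, 2 and 3, with wildtype first. Values in parentheses after them are the log2 fold change and its 95% confidence interval. Zmiz1 itself had 8119, 7929 and 7461 normalized counts in wildtype and 9944, 9779 and 9660.2 in those labelled Zmiz1-KO. The gene named as deleted was higher in every library labelled Zmiz1-KO than in every wildtype library (log2 fold change 0.32, standard error 0.04, limma adjusted p = 0.00125). Of its 75-base stretches 1.8% also occur in other genes, most often in the antisense gene Zmiz1os1. The table has no values for single exons, and transcripts that lack the floxed exons cannot be distinguished from intact ones. Whether the labels of the groups are exchanged was not tested, and an exchange would turn every direction given here. The groups are therefore named by their labels throughout, and "higher" and "lower" refer to the libraries labelled Zmiz1-KO against wildtype.

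All 44 genes passed the filter on low values, and none was called by limma, with a smallest adjusted p of 0.146, for Bmp7. Over all genes 65, or 0.411%, were called, 26 of them higher (0.165%) and 39 lower (0.247%). None was called by limma-voom either, and none had an adjusted p at or under 0.1, which held for 106 genes, or 0.671%, of the whole table. At an unadjusted p under 0.05 by limma there were 10 of the 44, with 5 higher and 5 lower, beside 11.0% of all genes, 5.13% higher and 5.84% lower. In 13 of the 44 genes the groups did not overlap, 6 of them higher (Bmp5, Bmp6, Bmp7, Tgfbr2, Skil and Ltbp3) and 7 lower (Bmp2, Tgfbr1, Acvr1b, Acvr1c, Bmpr1a, Bmpr2 and Ltbp1). Over all genes this held for 16.3%, 8.10% higher and 8.16% lower. The log2 fold changes of the 44 ran from -0.46 for Acvr1c to 0.54 for Bmp5 with a median of -0.02, beside a median of -0.00 over all tested genes. For 36 of them the 95% confidence interval lay within 0.5 on either side of 0. The median coefficient of variation among replicates was 6.72% in wildtype and 5.38% in the libraries labelled Zmiz1-KO, beside 6.20% and 5.79% over all tested genes. The members with the largest estimates are therefore described by their values and intervals, and none of them is a called change.

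**Figure D1:**
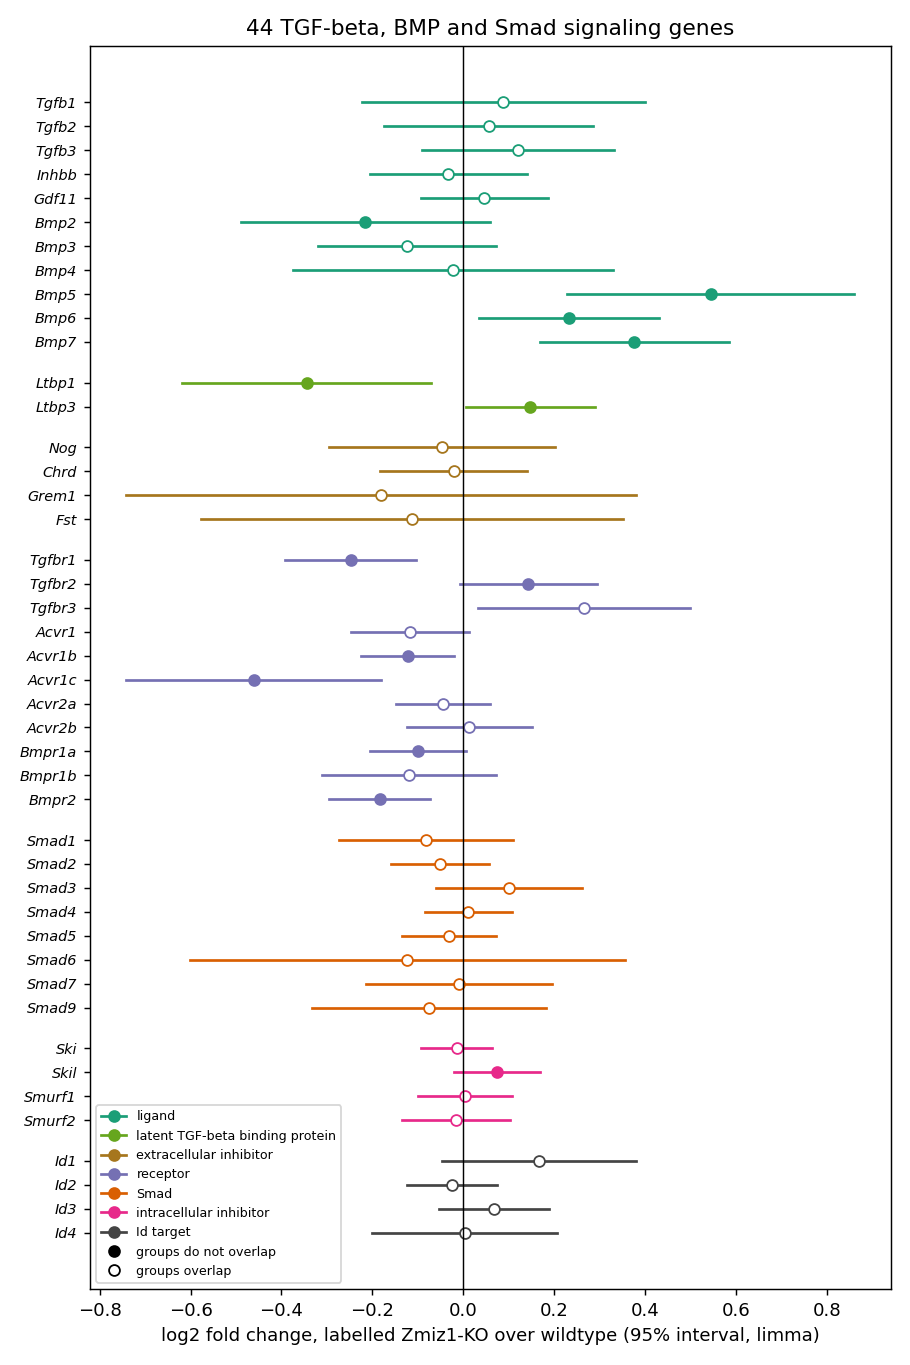
Log2 fold change of each of the 44 genes (x axis, libraries labelled Zmiz1-KO against wildtype, on log2(normalized count + 1)) with its 95% confidence interval from limma, grouped by role along the y axis. Estimates ran from -0.46 to 0.54, and no gene was called at an adjusted p of 0.05.

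Among the ligands, Bmp5, Bmp6 and Bmp7, which are close relatives within the BMP family, had no overlap between the groups and were higher. Bmp5 (chromosome 9 of GRCm38, 75775364 to 75900310, plus strand) had 134, 121 and 106 normalized counts in wildtype and 159, 180.1 and 188 in those labelled Zmiz1-KO. The lowest of the latter lay above the highest wildtype library, and the means were 120.3 ± 13.7 and 176 ± 14.8 (SD, n = 3). Its log2 fold change was 0.54 (95% confidence interval 0.23 to 0.86, limma adjusted p = 0.168), the highest estimate of the 44. Bmp5 is uncertain in this table, since 45.7% of the 75-base stretches of its transcripts also occur in other genes. The gene that shares the most is Gm26903, an antisense gene at its 3′ end, and the library kit does not mark strand. Bmp6 (chromosome 13, 38345107 to 38500302, plus strand) had 430.0, 534 and 529 normalized counts in wildtype and 557, 623 and 569 in those labelled Zmiz1-KO. Wildtype replicate 1 was the lowest library, and the highest wildtype library came close to the lowest of the other group. The log2 fold change was 0.23 (0.03 to 0.43, limma adjusted p = 0.357), and without wildtype replicate 1 it was 0.13. Bmp7 (chromosome 2, 172868012 to 172940321, minus strand) is made by meninges and choroid plexus, among other tissues. It had 503, 649.9 and 491 normalized counts in wildtype and 671, 728 and 720.1 in those labelled Zmiz1-KO. Wildtype replicate 2 stood apart from the other wildtype libraries and near the other group. The means of 548 ± 88.4 and 707 ± 30.9 (SD, n = 3) gave a log2 fold change of 0.38 (0.17 to 0.59, limma adjusted p = 0.146). Without wildtype replicate 2, Bmp7 was called, at a log2 fold change of 0.51 and a limma adjusted p of 0.0132, in a fit that called 0.536% of all genes.

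**Figure D2:**
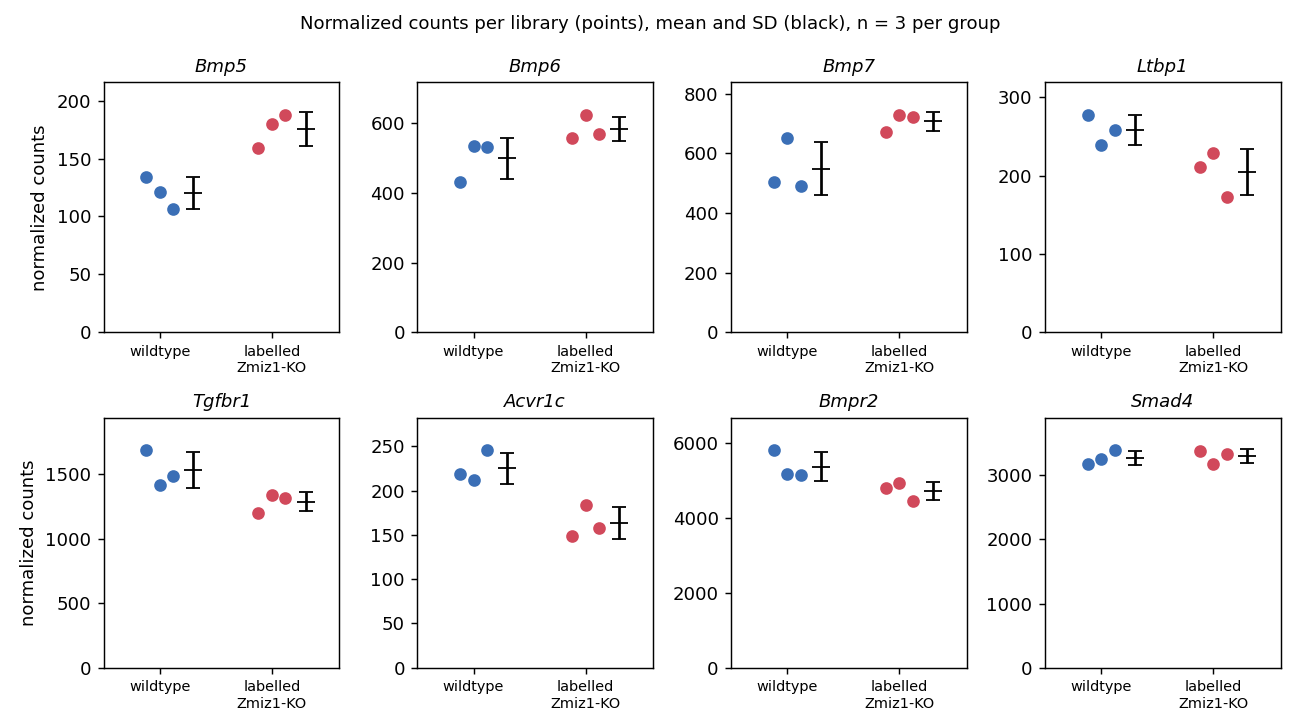
Normalized counts (y axis, linear from 0) of Bmp5, Bmp6, Bmp7, Ltbp1, Tgfbr1, Acvr1c, Bmpr2 and, for comparison, Smad4, 1 point per library, with the mean and SD of each group of 3 in black. The groups do not overlap in any of these genes except Smad4. Bmp7 in wildtype replicate 2 (650 normalized counts) lies close to the lowest library labelled Zmiz1-KO (671).

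Summed markers of meningeal cells, interneurons and striatum were also higher in the same libraries. Of 8 meningeal fibroblast markers, 8 had a positive log2 fold change and Col1a2 was called, and their summed level was 17997 to 21625 normalized counts in wildtype and 23213 to 25695 in those labelled Zmiz1-KO, with no marker at 0. Of 6 interneuron markers, 6 had a positive log2 fold change and none was called, with sums of 16507 to 20714 and 21554 to 23359. Of 5 striatal markers, 5 were positive and none was called, with sums of 6959.8 to 9709 and 10384 to 11359. The choroid plexus list had sums of 289.8 to 8379 in wildtype and 353 to 4843 in the other group, with 5 of 5 negative, none called and none at 0. The oligodendrocyte lineage list was lower without overlap in its sums, which are given with the receptors below. All remaining marker lists overlapped in their sums between the groups. Endothelial markers had 7293 to 7509 normalized counts in wildtype and 7279.9 to 7894 in the other group. Mural markers had 6399 to 7613 and 6513 to 6968, and microglia markers 4077 to 4364 and 3992 to 4146. Progenitor and cycling markers had 4208 to 4608 and 4419.7 to 5011, astrocyte markers 68610.5 to 73856 and 63003 to 70838, and erythrocyte genes 8089 to 11816 and 7792 to 8804. The part of these cells in the values of Bmp5, Bmp6 and Bmp7 was not tested. In tissue RNA, a different number of cells of a type and a different amount of RNA per cell cannot be told apart.

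**Figure D3:**
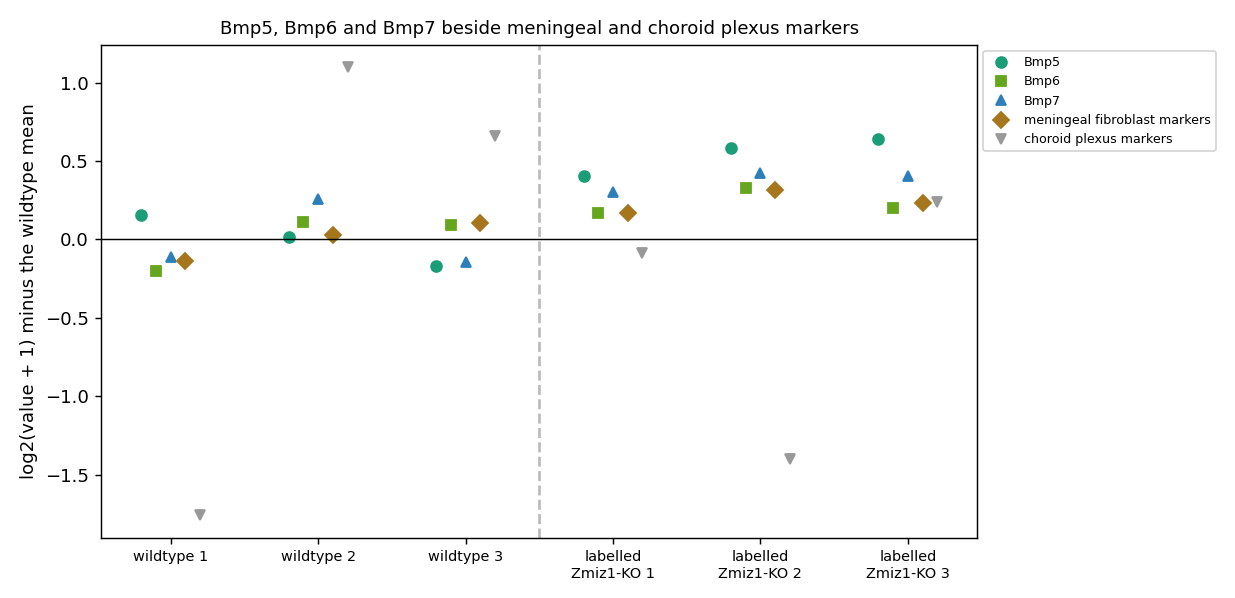
Log2 of the value relative to the wildtype mean (y axis) for Bmp5, Bmp6 and Bmp7 and for the mean of the meningeal fibroblast and choroid plexus marker lists, in each of the 6 libraries (x axis). The meningeal list ran from -0.14 to 0.11 in wildtype and from 0.17 to 0.32 in those labelled Zmiz1-KO, whereas the choroid plexus list ran from -1.76 to 1.10 within wildtype alone.

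The other 8 ligands were not called either. Bmp2 was the only other ligand without overlap, with 202, 191 and 220.3 normalized counts in wildtype and 182, 159 and 187 in those labelled Zmiz1-KO. The difference pointed down, by a log2 fold change of -0.22 (-0.49 to 0.06, limma adjusted p = 0.58). Bmp4, the closest relative of Bmp2, overlapped between the groups, with 112, 109 and 138 against 119, 131 and 104 normalized counts and a log2 fold change of -0.02 (-0.37 to 0.33). Bmp3, an atypical BMP that opposes the others, had 454, 494 and 464 against 460.3, 454 and 385 (-0.12, -0.32 to 0.07), also with overlap. The TGF-beta ligands all overlapped between the groups. Tgfb1 had 206, 149 and 185 normalized counts in wildtype and 214, 182 and 175 in the other group (0.09, -0.22 to 0.40). Tgfb2 had 831, 794 and 843 against 724, 1022 and 844 (0.06, -0.17 to 0.29), with the lowest and the highest of the 6 libraries both in the group labelled Zmiz1-KO. Tgfb3 had 299, 345 and 351 against 371, 364 and 345 (0.12, -0.09 to 0.33), with 7.34% of its 75-base stretches shared with another gene. For Inhbb, which encodes an activin subunit, the log2 fold change was -0.03 with an interval of -0.20 to 0.14. Gdf11, a factor that acts through activin receptors, had a log2 fold change of 0.05 with an interval of -0.09 to 0.19. Per kilobase of exon, Gdf11 was the most abundant ligand in wildtype with 223 normalized counts per kb, followed by Tgfb2 with 142, Bmp7 with 136 and Bmp6 with 128. The wildtype libraries of these last 3 overlapped in level. Bmp5, with 29.9 per kb in wildtype, and Tgfb1, with 35.7, were the least abundant and overlapped there. In the libraries labelled Zmiz1-KO Bmp5 had 43.6 per kb and Tgfb1 37.8.

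**Figure D4:**
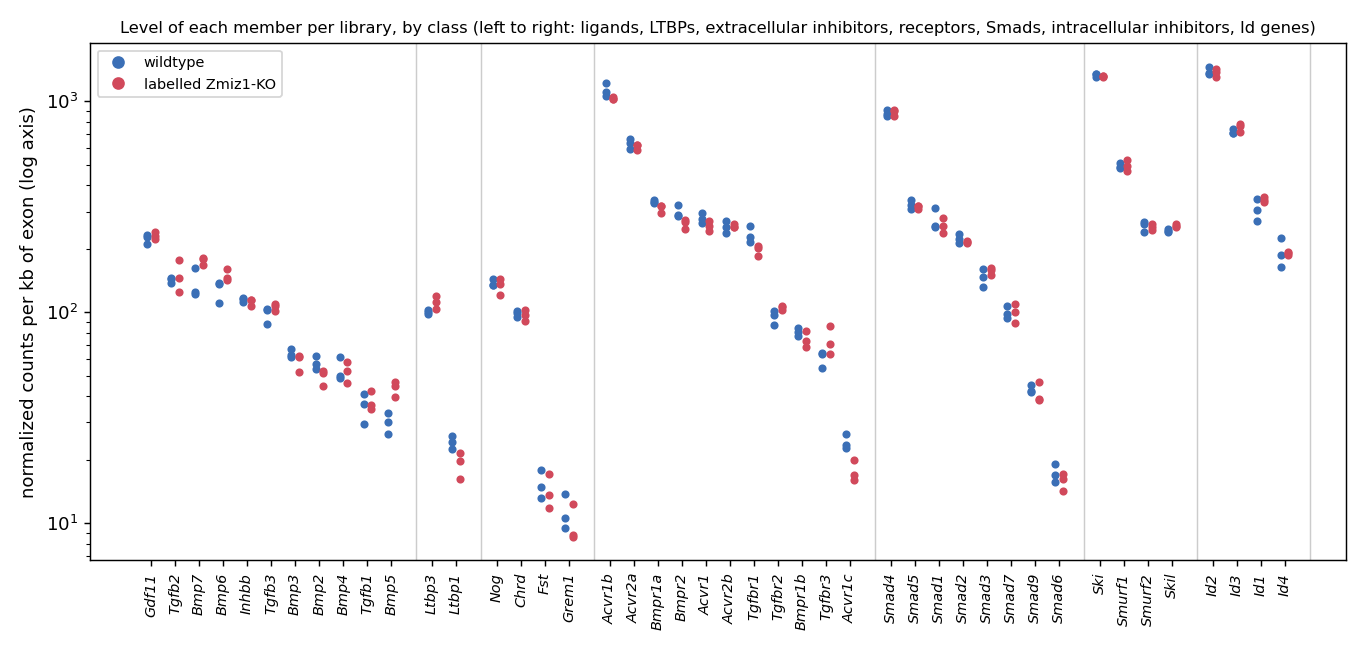
Level of each of the 44 genes in normalized counts per kb of exon (y axis, log scale), 1 point per library, with wildtype in blue and libraries labelled Zmiz1-KO in red. Genes are sorted by level within each role, and mean levels ran from 11.3 for Grem1 to 1393 for Id2 in wildtype.

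Latent TGF-beta binding proteins tether newly made TGF-beta to the matrix until it is released. Ltbp1 and Ltbp3 pointed in opposite directions, each without overlap between the groups and neither called. Ltbp1 (chromosome 17, 75005568 to 75392512, plus strand) had 277, 239 and 259 normalized counts in wildtype and 211, 229.5 and 172 in those labelled Zmiz1-KO. The highest library of the latter group was below the lowest wildtype library, and the log2 fold change was -0.34 (-0.62 to -0.07, limma adjusted p = 0.322). Ltbp3 had 891, 905 and 930.2 normalized counts in wildtype and 937, 1009 and 1079 in the other group, all 3 of them above wildtype. Its log2 fold change was 0.15 (0.01 to 0.29, limma adjusted p = 0.425). Without replicate 3 labelled Zmiz1-KO the log2 fold changes were -0.23 for Ltbp1 and 0.098 for Ltbp3. The secreted inhibitors Nog, Chrd and Grem1 bind BMPs, and Fst mainly binds activins. All 4 overlapped between the groups and had small negative estimates. Nog had 228, 243 and 229 against 245, 229 and 205 normalized counts (-0.05), and Chrd had 592, 634 and 621 against 609, 570.3 and 641 (-0.02). Grem1 was the least abundant member, with 44.1, 56.9 and 39.2 in wildtype and 35.7, 51.4 and 36.4 in the other group, and its interval of -0.74 to 0.38 is the widest of the 44. Fst had 60.2, 82.4 and 67.8 against 54.1, 78.0 and 62.7 (-0.11, -0.58 to 0.35). At these low values a log2 fold change of -0.5 lay within the intervals of both Grem1 and Fst.

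None of the 11 receptors and co-receptors was called. Of these 8 had a negative estimate, beside 7910 of all 15800 genes, and the groups did not overlap in 6, with 5 lower and Tgfbr2 higher, beside 8.16% of all genes lower and 8.10% higher. Type I receptors are the kinases that phosphorylate Smads. The 6 of them among the 44 all had negative estimates, and 4 were lower without overlap, beside the same 8.16% of all genes. A further type I receptor, Acvrl1, belongs to the wider list described below. It overlapped between the groups, with a positive log2 fold change of 0.05 (-0.16 to 0.25). Tgfbr1, the type I receptor for TGF-beta (chromosome 4, 47353222 to 47414931, plus strand), had 1684, 1414 and 1488 normalized counts in wildtype and 1201, 1339.7 and 1316 in those labelled Zmiz1-KO. All 3 of the latter lay below wildtype, with means of 1528 ± 139 and 1286 ± 74.1 (SD, n = 3) and a log2 fold change of -0.25 (-0.39 to -0.10, limma adjusted p = 0.168). Acvr1c, a type I receptor for activin B, Nodal and some growth differentiation factors (chromosome 2, 58267453 to 58357895, minus strand), had 218, 212 and 245 normalized counts in wildtype and 149, 184 and 158 in the other group. All 3 of the latter lay below wildtype, though the gap between the groups was smaller than the range within either, and the estimate of -0.46 (-0.74 to -0.18, limma adjusted p = 0.185) was the lowest of the 44. Acvr1b, the main activin type I receptor, had 5395, 4895 and 4697 normalized counts against 4648, 4541 and 4553. Its groups were separate by a narrow margin, at a log2 fold change of -0.12 (-0.23 to -0.02), or -0.066 without wildtype replicate 1. The BMP receptor Bmpr1a was separate as well, with 2105, 2088 and 2153 against 2019, 2026 and 1881 (-0.10, -0.20 to 0.01), or -0.065 without replicate 3 labelled Zmiz1-KO. Bmpr1b and Acvr1 overlapped, with log2 fold changes of -0.12 (-0.31 to 0.07) and -0.12 (-0.25 to 0.01). In wildtype, Acvr1b was the most abundant receptor per kilobase, at 1131 normalized counts per kb, and Acvr1c the least, at 24.2.

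Among the type II receptors, Bmpr2 (chromosome 1, 59763400 to 59879014, plus strand), which pairs with BMP type I receptors, had 5811, 5182 and 5141 normalized counts in wildtype and 4802, 4927 and 4463 in those labelled Zmiz1-KO. Each of the latter was below each wildtype library, with means of 5378 ± 375 and 4731 ± 240.1 (SD, n = 3), a log2 fold change of -0.18 (-0.30 to -0.07) and a limma adjusted p of 0.185. Tgfbr2, which pairs with Tgfbr1, pointed the other way, with 826, 794 and 716 against 834, 867 and 875 normalized counts (0.14, -0.01 to 0.29). Without wildtype replicate 3 its log2 fold change was 0.084. The difference between the 2 TGF-beta receptors was not tested. Acvr2a and Acvr2b, which bind activins and some BMPs, overlapped between the groups, at log2 fold changes of -0.04 (-0.15 to 0.06) and 0.01 (-0.12 to 0.15). The co-receptor Tgfbr3, or betaglycan, which presents TGF-beta to the kinases, had 358, 418 and 413 against 461, 562 and 416. Replicate 3 labelled Zmiz1-KO lay within wildtype, and the log2 fold change was 0.27 (0.03 to 0.50), or 0.15 without replicate 2 labelled Zmiz1-KO. Alongside the lower receptor values, 8 of 8 oligodendrocyte lineage markers had negative estimates with Olig1 called, and their sums were 15282 to 17462 in wildtype and 13641 to 14289.5 in those labelled Zmiz1-KO. All 6 excitatory neuron markers were negative by sign and none was called, with overlapping sums of 36099 to 42314 and 34785 to 37256. Among them, Slc17a7 was practically unchanged, at a log2 fold change of -5.46e-06 (-0.09 to 0.09). Beside Col1a2 and Olig1, the astrocyte water channel gene Aqp4 was the only other marker called of 73 tested. No marker of the oligodendrocyte or excitatory neuron list was at 0, and their part in the receptor values was not tested.

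The promoters of Bmp5, Ltbp1 and Tgfbr1 are shown as examples of a ligand, a latency protein and a receptor whose groups did not overlap and which hold a Smad motif. They are the bases just upstream of the gene's most upstream start in the RefSeq table of GRCm38.p6, 5′ to 3′ on the gene's strand. Capitals mark the Smad box (CAGAC, or GTCTG on the opposite strand) in the first and second and the GC-rich Smad motif GGCGCC, which reads the same on both strands, in the last.
Bmp5, chr9:75775115-75775363, plus strand: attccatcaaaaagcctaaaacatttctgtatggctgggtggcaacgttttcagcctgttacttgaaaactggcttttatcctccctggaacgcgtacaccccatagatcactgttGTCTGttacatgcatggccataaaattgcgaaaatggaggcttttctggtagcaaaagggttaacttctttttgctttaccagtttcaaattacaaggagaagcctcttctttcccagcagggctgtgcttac
Ltbp1, chr17:75005279-75005528, plus strand: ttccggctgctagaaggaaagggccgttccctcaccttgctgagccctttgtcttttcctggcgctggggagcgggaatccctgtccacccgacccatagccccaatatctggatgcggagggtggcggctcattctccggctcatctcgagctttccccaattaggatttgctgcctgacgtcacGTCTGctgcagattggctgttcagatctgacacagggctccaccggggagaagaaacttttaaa
Tgfbr1, chr4:47352972-47353221, plus strand: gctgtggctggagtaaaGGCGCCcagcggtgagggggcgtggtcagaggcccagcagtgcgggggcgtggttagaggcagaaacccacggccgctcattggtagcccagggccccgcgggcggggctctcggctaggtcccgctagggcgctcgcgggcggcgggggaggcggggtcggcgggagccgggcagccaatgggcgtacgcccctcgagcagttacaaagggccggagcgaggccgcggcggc
Of the 44 genes 32 had a promoter in that table. In the 250 bases upstream of the start, the Smad box was found in 13 of the 32, or 40.6%, beside 41.2% of tested genes and 42.2% of all promoters in the table. GGCGCC was found in 10 of the 32, or 31.2%, beside 16.5% of tested genes and 9.57% of all promoters. The promoters of the 32 genes were also richer in G and C, with a median of 70.6% beside 59.6% over tested genes. The motifs do not overlap each other in letters, and a match says only that the letters are present.

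The 8 Smads overlapped between the groups without exception, with adjusted p-values by limma of 0.678 or above. Smad4, the shared partner of all receptor-regulated Smads, had 3171, 3248 and 3383 normalized counts in wildtype and 3374, 3172 and 3329.7 in those labelled Zmiz1-KO. The means of 3267 ± 107 and 3292 ± 106 (SD, n = 3) were close, and the interval of the log2 fold change, -0.08 to 0.11, was narrow. Smad3, the Smad with which Zmiz1 is known to act, had 733, 818 and 892 normalized counts against 875, 837 and 901. Its lowest library was wildtype replicate 1, and its interval was -0.06 to 0.26 around 0.10. Smad2 had a log2 fold change of -0.05 (-0.16 to 0.06). The BMP Smads had log2 fold changes of -0.08 (-0.27 to 0.11) for Smad1, -0.03 (-0.14 to 0.07) for Smad5 and -0.08 (-0.33 to 0.18) for Smad9. Smad6 and Smad7 are inhibitory Smads whose transcription the pathway itself induces. Smad6 had 54.4, 50.2 and 61.1 against 54.5, 52.1 and 45.3 normalized counts, the lowest level of the 8, and its interval of -0.60 to 0.36 was the widest of the 8. Smad7 had 486, 442 and 425 against 452, 495 and 400.0 (-0.01, -0.21 to 0.19). Per kilobase, Smad4 was the most abundant Smad in wildtype, at 880.2 normalized counts per kb, and Smad6 the least, at 17.2.

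The intracellular inhibitors were as close between the groups. Ski and Skil encode corepressors that bind Smads, and Smurf1 and Smurf2 encode ubiquitin ligases that remove Smads and receptors. Ski had 7472, 7269.7 and 7473 normalized counts against 7377, 7283 and 7339.8, with an interval of -0.09 to 0.06, the narrowest of the 44. Skil was separate between the groups, with 2406, 2352 and 2334 against 2459, 2538 and 2472, at a log2 fold change of only 0.07 (-0.02 to 0.17, limma adjusted p = 0.585). Smurf1 and Smurf2 overlapped, at log2 fold changes of 0.00 (-0.10 to 0.11) and -0.02 (-0.13 to 0.10).

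The Id genes encode helix-loop-helix proteins that block neuronal differentiation factors and are direct targets of BMP Smads. None was separate between the groups. Id1 had 314, 397 and 355 normalized counts in wildtype and 409, 388 and 394 in those labelled Zmiz1-KO. Wildtype replicate 2 lay among the other group, and the log2 fold change was 0.17 (-0.05 to 0.38, limma adjusted p = 0.587). Id3 had 1268, 1271 and 1319.6 against 1399, 1279.9 and 1368 (0.07, -0.05 to 0.19). Id2, the most abundant of the 44 per kilobase at 1393 normalized counts per kb in wildtype, had a log2 fold change of -0.02 (-0.12 to 0.08), and Id4 had 0.00 (-0.20 to 0.21). An increase of these targets by 0.5 on the log2 scale lay outside all 4 intervals.

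**Figure D5:**
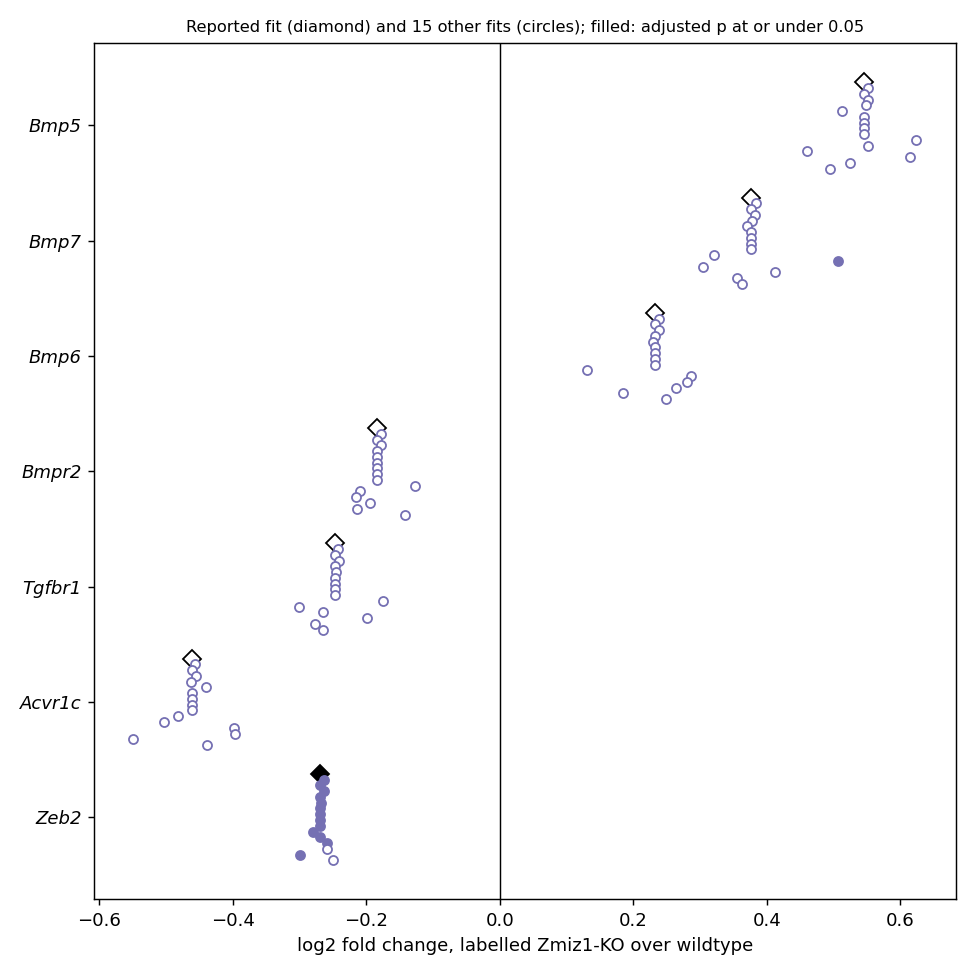
Log2 fold change (x axis) of 6 members and Zeb2 (y axis) in the reported fit (diamond), under other processing and with each library left out (circles), filled where the gene was called. The fit with the replicate number as a block, which called Bmp7, Bmpr2 and Zeb2 among these genes, is not drawn. Points of a gene lie on 1 side of 0, from 0.46 to 0.62 for Bmp5 and from -0.55 to -0.40 for Acvr1c with a library left out.

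A wider list of 105 further pathway genes put the 44 in context. Of these 88 passed the filter on low values, and 1 was called, beside 0.411% of all genes. Of the 88, 39 had positive and 49 negative estimates, and 24 were separate between the groups, 14 higher and 10 lower, or 27.3% beside 16.3% of all genes. The called gene was Zeb2, a zinc-finger repressor that binds activated Smads and acts in neuronal and oligodendrocyte differentiation. Zeb2 had 5813, 5894 and 5976 normalized counts in wildtype and 4818, 5101 and 4764 in those labelled Zmiz1-KO. The lowest wildtype library was above the highest of the other group, at means of 5895 ± 81.6 and 4894 ± 181 (SD, n = 3), and the log2 fold change was -0.27 (-0.36 to -0.18, limma adjusted p = 0.00542). The call was lost without replicate 1 or replicate 3 labelled Zmiz1-KO, at limma adjusted p-values of 0.0532 and 0.085, in fits that called 0.108% and 0.0764% of all genes. Of the oligodendrocyte lineage markers, 8 of 8 were also negative in these libraries, with Olig1 called and the sums given above, and their part in the value of Zeb2 was not tested. Of the 75-base stretches of Zeb2, 1.49% also occur in other genes, most often in the antisense gene Zeb2os, which it overlaps. Of the Smad regulators and partners that hold Zeb2, 21 of 27 tested genes had negative estimates, and the next lowest p was that of Rnf111, a ubiquitin ligase that removes Ski and Skil, with 1421, 1384 and 1328 against 1217, 1187 and 1189 normalized counts (-0.20, limma adjusted p = 0.168).

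In the other classes of the wider list nothing was called. Of 14 tested ligands 9 had negative estimates, and Inhba, an activin subunit induced by neuronal activity, had 434, 380.5 and 491 against 295, 235 and 345 normalized counts (-0.59, -0.88 to -0.29, limma adjusted p = 0.121). Amh, anti-Müllerian hormone, was near the filter of 10 normalized counts with 40.6, 31.3 and 43.1 against 10.1, 24.1 and 16.6 and was separate between the groups (-1.20, limma adjusted p = 0.216). Of 9 tested receptors and co-receptors 6 were negative, and Cd109, a TGF-beta co-receptor, had 122, 157 and 156 against 93.6, 127 and 89.9, with overlap. Neo1, a receptor for netrins and repulsive guidance molecules, had a log2 fold change of -0.07 (-0.16 to 0.03). Of 11 tested genes of latency and activation 7 were positive. Lrrc32, which holds latent TGF-beta at the cell surface, had 263, 248 and 324 against 347, 364 and 394 (0.41, limma adjusted p = 0.168), and Thbs1, an activator of latent TGF-beta, had 823, 887 and 868 against 994, 1024 and 964 (0.21). Of 10 tested extracellular inhibitors 7 were positive and 5 were higher without overlap, beside 8.10% of all genes, and none was called. These include Fstl1, with 3266, 3402 and 3371 against 3742, 3972 and 3587 (0.17, limma adjusted p = 0.168), and Nbl1, with 1052, 1000.2 and 1116 against 1139, 1145 and 1276 (0.17). Of 17 tested targets 11 were positive, and 7 were higher and 1 lower without overlap, beside 8.10% and 8.16% of all genes, and none was called. Fn1, fibronectin, had 6528, 6379.9 and 5817 against 6831, 7503 and 6693 (0.17, limma adjusted p = 0.235), and Dlx5, a homeobox gene of forebrain interneurons, had 239, 275 and 312 against 334, 344 and 345 (0.32). Col1a1 stands both among these targets and in the meningeal list. The interneuron and meningeal marker sums given above were higher in the same libraries, and their part in these values was not tested.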

How the data were processed

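Total RNA of dissected cortex was made into libraries with a TruSeq kit that does not mark strand. The authors aligned reads to mm10 with STAR, obtained gene counts and scaled them by DESeq2, all in Illumina BaseSpace. The authors deposited these normalized counts as a signal table with 1 column for each library. Versions and annotation are not given in the sources used here. Low values lie near multiples of a step of 1.83 to 2.11 per library, and the sum divided by the step gave the estimated reads or read pairs. Whether a step stands for a read or for a pair was not tested. Whole reads were not recovered for most genes, so no test for counts was run.

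The filter asked for 10 or more normalized counts in 3 or more libraries, and the 15800 of 24972 genes that passed were fitted with limma (version 3.58.1, R version 4.3.3) on log2(value + 1), with an intensity trend, robust estimation and no covariate. Two-sided p-values were adjusted over these 15800 genes (Benjamini-Hochberg), and calls were made at an adjusted p at or under 0.05. An exact permutation test of 3 against 3 cannot go below p = 0.1. The procedure was tested on simulated data. Fold changes on this scale understate those of low genes. With 3 libraries per group the precision is limited, and the part of depth in this was not tested.

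The 44 genes, the wider pathway list and the marker lists were chosen with earlier results of these data known. Named genes are Zmiz1, the 44, and of the wider list every called gene and otherwise the 2 with the smallest unadjusted p in each class. Rnf111, Slc17a7 and Acvrl1 were chosen after their values were seen. Of the marker lists, sums and called genes are given. Levels per kb use exon lengths of GENCODE M21 on GRCm38, which also gave coordinates and shared 75-base stretches. Promoters are from RefSeq (GRCm38.p6), and 32 of 44 genes matched. Alternatives were limma-voom, scaling by median ratios or upper quartiles, pseudocounts of 0.1 and 10, other filters, an adjusted p of 0.1, no robust estimation, a sex covariate (by Xist and Ddx3y, 2 libraries of each group are male and 1 is female), a block for the replicate number and leaving out each library. Figures were drawn with matplotlib (version 3.10.9).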

Additional observations from a re-analysis of the deposited data

How the results depend on the processing

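Of 748 values of the 44 genes under the alternatives, 716 kept their direction and their side of the threshold and 3 passed it newly. Part of this was fixed in advance. The other filters, the adjusted p of 0.1, no robust estimation, the sex covariate and the replicate block cannot change a log2 fold change here. Under these, and under median-ratio scaling, no direction could turn. The 29 values that turned direction all came from leaving out a library. They belong to 16 genes with small log2 fold changes in the reported fit, the largest in size being -0.113 for Fst. Over the libraries left out, these ran from -0.042 to 0.193 in Tgfb1, -0.073 to 0.175 in Tgfb2, -0.052 to 0.001 in Inhbb, -0.100 to 0.084 in Bmp4, -0.035 to 0.058 in Acvr2b, -0.142 to 0.014 in Smad1, -0.010 to 0.037 in Smad4, -0.065 to 0.005 in Smad5, -0.083 to 0.070 in Smad7, -0.037 to 0.045 in Smurf1, -0.060 to 0.014 in Smurf2, -0.105 to 0.023 in Nog, -0.061 to 0.023 in Chrd, -0.252 to 0.008 in Fst, -0.050 to 0.009 in Id2 and -0.102 to 0.125 in Id4. With a library left out, 0 to 1 of the 44 genes were called (Bmp7, without wildtype replicate 2), 0 to 2 of the wider list (2 without replicate 2 labelled Zmiz1-KO, 0 without its replicate 1 or 3), 1 to 6 of the marker genes beside 3 in the reported fit (6 without wildtype replicate 2, 1 without replicate 3 labelled Zmiz1-KO) and 12 to 152 of all genes. Of all genes, 17 were called without robust estimation. In the reported fit, 106 had an adjusted p at or under 0.1. Same-numbered libraries did not deviate together (correlations of -0.00509, -0.113 and -0.00627) nor did every library correlate best with its own number, and nothing in the labels pairs them. With the replicate number as a block, 168 of all genes (1.06%), 10 marker genes, 3 genes of the wider list and 2 of the 44 (Bmp7 and Bmpr2, limma adjusted p = 0.0439 and 0.0451) were called. The cause was not tested. Median-ratio factors were 1 in every library, so that alternative changed no value. The intervals of Grem1, Smad6 and Fst, which have low values, are the widest of the 44. The part of depth in this was not tested.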
